A study of Homo sapiens with 6 samples.

Results

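E2F transcription factors and the RB family of pocket proteins were examined in MCF10A, a line of mammary epithelial cells that do not form tumours, after stable expression of an shRNA against FRY. FRY encodes a partner of the NDR kinases that associates with microtubules. The genes were E2F1, E2F2, E2F3, E2F5, E2F7, E2F8, the dimer partner gene TFDP1 and the pocket protein genes RB1, RBL1 and RBL2. Every probe set that the platform annotation assigns to exactly 1 gene was taken if that gene was in this list, which gave 23 of the 54613 probe sets other than controls and 10 of the 19775 genes. The control group was 3 samples of MCF10A cells carrying a non-targeting shRNA (10A-CV), and the shFRY group was 3 samples of MCF10A cells carrying a FRY-targeting shRNA (10A-shFRY). All cells had been selected with puromycin. The medium (MEBM) held pituitary extract, hydrocortisone at 5 μg/ml, insulin at 10 μg/ml and EGF at 20 ng/ml, and RNA was taken at 70% confluence. Each construct was represented by 1 selected stable clone, so shRNA and clone cannot be told apart. Within a clone, the samples came from different passages, so the p-values rest on the variation among passages of 1 clone.

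E2F factors bind DNA as dimers with a DP partner such as TFDP1 and control genes needed for S phase. In quiescent or early G1 cells they are held in check by the pocket proteins RB1, RBL1 (p107) and RBL2 (p130), which D-type and E-type cyclins with their kinases phosphorylate and release. E2F1, E2F2 and E2F3 are known as activators, E2F5 as a repressor that works with RBL1 and RBL2, and E2F7 and E2F8 as atypical repressors that bind DNA without a DP partner. Several of these genes, among them E2F1, E2F2 and RBL1, are themselves known E2F targets.

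The deposited values are log2 signals from RMA, a method that makes the arrays' distributions alike, so they cannot show a shift of the whole transcriptome. Sample medians lay between 3.02 and 3.06, and samples correlated at r = 0.992 to 0.995 within a group and at 0.972 to 0.978 between groups. By the labels, the chosen clone had about 60% less FRY than the parental line. On the arrays all 4 FRY probe sets were lower in shFRY, by 0.32 to 0.75 (log2), and only 204072_s_at passed the threshold (3.86 ± 0.34 against 3.11 ± 0.22, SD, n = 3 each). The brightest, 214319_at, overlapped between the groups and did not pass (difference -0.49, limma adjusted p = 0.203). Nor did 1555904_at and 214318_s_at, which did not overlap (limma adjusted p = 0.0576 and 0.103). The 9 measured of 12 mammary epithelial markers lay at or above the 91.6th percentile of genes. Of 22 measured markers of adipocytes, endothelial cells, fibroblasts and immune cells, 4 lay above the median gene. Markers moved with the group: 5 of the 9 epithelial ones were higher and 2 lower, and their summed log2 signal was 92.7 to 92.9 in control and 97.5 to 98.4 in shFRY samples. The largest rises were those of KRT14 (2.92) and LAMB3 (1.71), and the 2 lower ones were KRT8 (-0.93) and KRT18 (-0.37), so the sum hides opposite changes. Summed signals of the 6 fibroblast markers were 18.2 to 20.0 and 15.2 to 18.0 (0 higher, 1 lower, DPT at -2.75), and those of the 4 immune markers 8.44 to 9.16 and 7.16 to 8.06 (0 higher, 1 lower, PTPRC at -1.06). For the 6 endothelial markers they were 22.1 to 22.7 and 20.9 to 22.4 (1 higher, 1 lower), and for the 6 adipocyte markers 16.1 to 16.6 and 17.6 to 18.2 (2 higher, 0 lower). The part of these markers in the results was not tested. For beta-actin, signal at the 3′ control probe set minus that at the 5′ one, which reads RNA integrity and amplification, was 2.33, 2.52 and 2.71 in the control samples and 2.88, 2.89 and 2.84 in the shFRY samples (log2). It therefore moved with the group in every comparison below, and values with it as a covariate are given beside the calls it ended. The groups did not overlap in it, so covariate and group share much of their variation and that fit is less precise. Calls can be lost through that alone, and the part of RNA integrity in the differences was not tested. For GAPDH the same 3′ minus 5′ difference was -0.082, -0.103 and -0.082 in the control samples. In the shFRY samples it was -0.097, -0.045 and -0.076, and the groups overlapped.

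RefSeq start-site windows (GRCh38.p14, 250 bases before to 50 bases after a transcript start) were at hand for 8 of the 10 genes. An E2F motif was found in those of 5 genes. Of these 5, 4 were called lower in shFRY cells by gene, where 5 of all 10 members and 16% of all genes were lower. Whether motif and fall are linked was not tested. E2F5 and E2F8 had no entry. The last 130 bases before the start are printed 5′ to 3′ on the strand of the gene, with matches to TTTCCCGC, TTTCGCGC, TTTGCCGC or TTTGGCGC on either strand in capitals. The E2F1 window is chr20:33686386-33686515 on the minus strand, that of E2F2 is chr1:23531234-23531363 on the minus strand, and that of RBL1 is chr20:37095998-37096127 on the minus strand. The TFDP1 window is chr13:113584623-113584752 on the plus strand, and that of E2F3 is chr6:20401749-20401878 on the plus strand. The E2F7 window, chr12:77065570-77065699 on the minus strand, is shown as one with no match.
E2F1: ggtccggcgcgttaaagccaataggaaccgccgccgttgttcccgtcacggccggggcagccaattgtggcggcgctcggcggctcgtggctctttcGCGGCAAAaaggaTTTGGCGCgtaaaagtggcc
E2F2: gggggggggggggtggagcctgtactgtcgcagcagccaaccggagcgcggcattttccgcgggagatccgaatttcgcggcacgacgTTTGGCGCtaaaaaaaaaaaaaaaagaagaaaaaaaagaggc
RBL1: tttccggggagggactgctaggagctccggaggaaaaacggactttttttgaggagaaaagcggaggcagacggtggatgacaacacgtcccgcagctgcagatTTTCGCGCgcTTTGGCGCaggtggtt
TFDP1: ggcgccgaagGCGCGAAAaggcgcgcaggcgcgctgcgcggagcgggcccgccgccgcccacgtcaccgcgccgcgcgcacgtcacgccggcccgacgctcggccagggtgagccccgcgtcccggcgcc
E2F3: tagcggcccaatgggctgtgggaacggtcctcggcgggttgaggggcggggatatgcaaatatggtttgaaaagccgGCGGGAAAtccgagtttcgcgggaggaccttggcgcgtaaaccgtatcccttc
E2F7: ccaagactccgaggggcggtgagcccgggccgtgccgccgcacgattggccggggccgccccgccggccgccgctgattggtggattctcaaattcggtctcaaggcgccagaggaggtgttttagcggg

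Both E2F1 and RBL1 had 2 matches close to the start, at -33 to -26 and -20 to -13 for E2F1 and at -26 to -19 and -16 to -9 for RBL1 (the transcript's first base counted as 0). E2F2 had 1 match at -42 to -35, E2F3 1 at -53 to -46 and TFDP1 1 at -120 to -113. In E2F1, the shorter motif TTTCGCG at -37 to -31 overlapped the first of its matches. The same shorter motif also lay apart from the match in E2F2, at -57 to -51, and in E2F3, at -39 to -33. Of all 35116 windows in the table, 3.31% held such a match, as did at least 1 window of 3.99% of the 27305 genes. A second E2F3 window, both RBL2 windows and the E2F7 window held none. The only RB1 window belongs to a transcript that starts 172699 bases inside the gene, so it does not show the region before the gene's first start, and it held no match either. The CHR motif TTTGAA, which the DREAM complex of pocket proteins is known to bind, was found in E2F3 at -65 to -60 and in RBL2 at 24 to 29, on the strand of the gene. That was 2 of the 10 member windows, near the 15.2% of all windows that held it. By gene it was 2 of 8, near the 18.2% of all genes. A match is a string of letters and not a measured binding site.

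**Figure D1:**
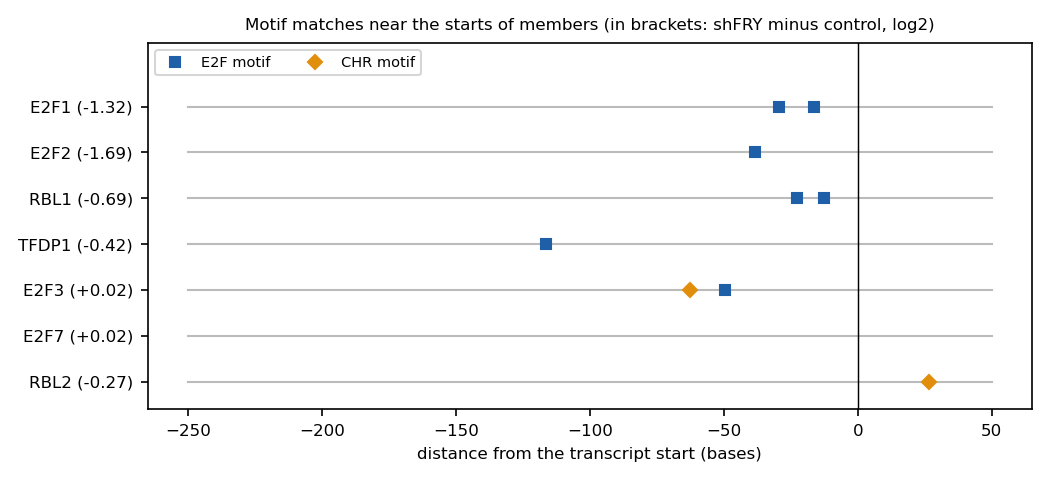
Matches to the E2F motif (squares) and the CHR motif (diamonds) on either strand, by distance from the transcript start in bases, in the first listed window of each gene; the number beside each gene is its shFRY minus control difference (log2). E2F1, E2F2 and RBL1 have E2F matches between -42 and -9, E2F3 has a match at -53 to -46 and a difference of 0.02, and E2F7 has none.

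In shFRY cells E2F1, E2F2, E2F8, RBL1 and TFDP1 fell, E2F5 rose, and E2F3, E2F7 and RB1 did not pass the test. RBL2 fell at 1 of its 2 probe sets. Of the 23 probe sets, 11 were lower and 1 was higher at an adjusted p of 0.05 (limma over all 54613 probe sets, Benjamini-Hochberg), where 12.2% of all probe sets were lower and 10.9% higher. The median difference of the 23 was -0.42, against 0.03 over all probe sets. At least 2-fold falls were found at 4 of the 23, where 3.38% of all probe sets had one. With 1 probe set for each gene, the one with the highest mean signal, 5 of 10 genes were lower and 1 was higher, where 16% of all genes were lower, 13.7% higher and 29.8% called either way. Falls of at least 2-fold were found for 3 of the 10 genes, against 4.08% of all genes, and the groups did not overlap for 7 of the 10, against 44.2%. In RNA from whole cultures, fewer cells with a transcript and less of it in each cell cannot be told apart.

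**Figure D2:**
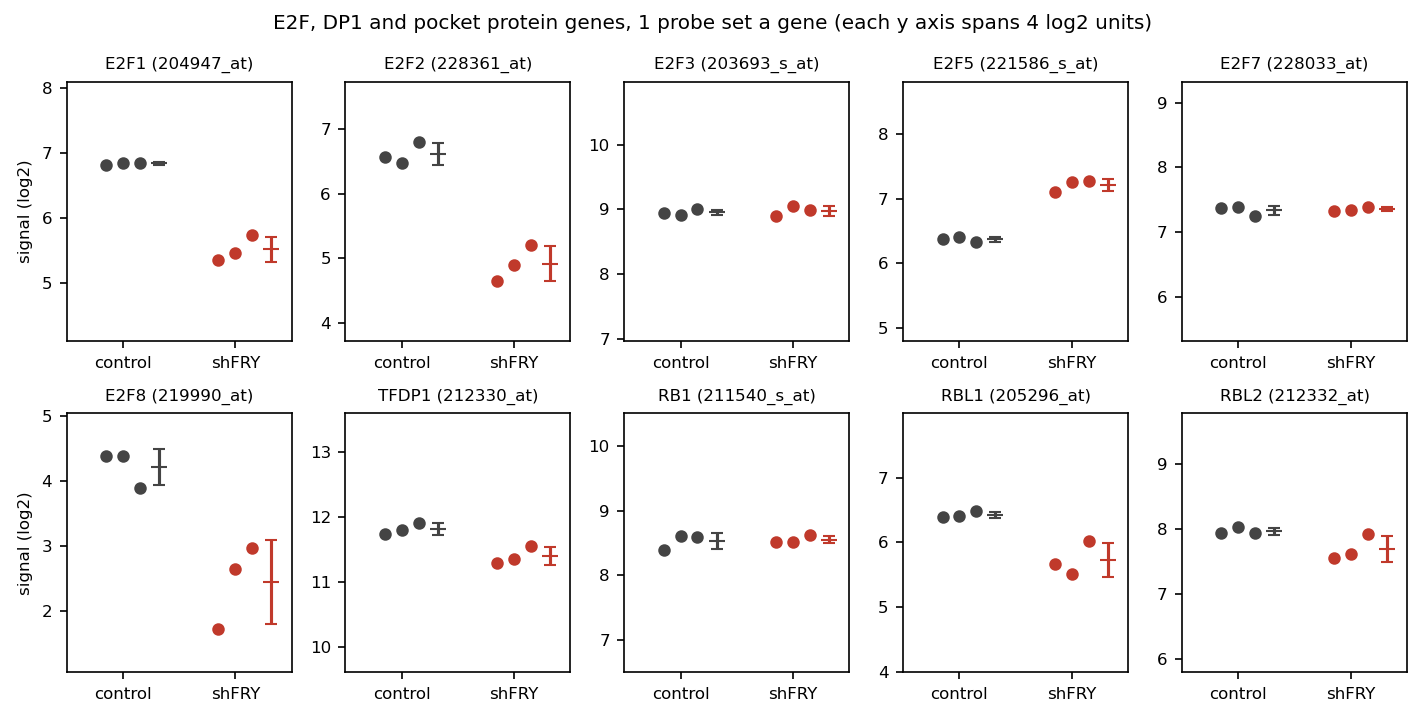
Log2 signal in each of the 3 control (grey) and 3 shFRY (red) samples for the probe set with the highest mean of each gene; bars are the mean ± SD, and each vertical axis spans 4 log2 units. The groups are apart for E2F1, E2F2, E2F5, E2F8, TFDP1, RBL1 and RBL2 and overlap for E2F3, E2F7 and RB1.

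The activator gene E2F1 fell at both of its probe sets. At 204947_at its signal was 6.82, 6.85 and 6.84 in the control samples and 5.35, 5.45 and 5.73 in the shFRY samples (log2). The groups did not overlap, and the shFRY samples lay far below a control group that varied little. This was a 2.50-fold lower signal (difference -1.32, SE 0.12, limma adjusted p = 0.000195). At its other probe set, 2028_s_at, the values were 5.24, 5.33 and 5.62 in control and 3.63, 3.92 and 4.01 in shFRY, again without overlap and with shFRY sample 1 lowest. The difference there was -1.54 (SE 0.15, limma adjusted p = 0.000219). Both probe sets kept their calls without any 1 sample and with the beta-actin difference as a covariate, at -1.30 and -1.86 (limma adjusted p = 0.0460 and 0.0180).

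E2F2, the second activator, fell by 1.69 on the log2 scale at 228361_at, its brightest probe set. The control samples had 6.57, 6.47 and 6.80 and the shFRY samples 4.66, 4.90 and 5.20, which is 3.23-fold lower (SE 0.16, limma adjusted p = 0.000207). With the beta-actin covariate this was -1.85 (limma adjusted p = 0.0325). The other probe sets of E2F2 were dim, with mean signals near the median of all probe sets, and their differences were smaller. At 235582_at the values were 3.50, 3.35 and 3.90 in control and 2.92, 3.01 and 3.11 in shFRY (difference -0.57, SE 0.15, limma adjusted p = 0.0295). That call was lost in 4 of 6 leave-one-out fits (without control sample 1 or 3, or shFRY sample 1 or 2), and with the beta-actin covariate (-0.93, limma adjusted p = 0.135). As the mean of its 3 probe sets, E2F2 fell by 0.93 on the log2 scale (limma adjusted p = 0.00156). At 207042_at the values were 3.27, 3.24 and 3.73 against 2.99, 2.60 and 3.10, without overlap and without passing (difference -0.52, limma adjusted p = 0.0732).

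E2F3, the third activator, did not pass at either probe set. At 203693_s_at the control samples had 8.95, 8.92 and 9.00 and the shFRY samples 8.90, 9.05 and 8.99. These values overlap throughout, with a difference of 0.02 and a 95% confidence interval from -0.21 to 0.25. At 203692_s_at the control samples had 7.40, 7.62 and 7.20 and the shFRY samples 7.48, 7.38 and 7.54 (difference 0.06, 95% confidence interval -0.24 to 0.36). The interval at 203693_s_at leaves out a fall of the size seen for E2F1. The change of E2F1 was lower than that of E2F3 by 1.35 and the change of E2F2 lower by 1.71 (log2, 204947_at, 228361_at and 203693_s_at), and in each case the within-sample difference did not overlap between the groups. For both, the two-sided exact permutation p was 0.1 (no smaller value is possible with 3 samples a group), and 0.1 adjusted over 6 such pairs chosen after the values were seen.

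E2F5, the repressor that works with RBL1 and RBL2, was the member that rose. At 221586_s_at the control samples had 6.38, 6.41 and 6.33 and the shFRY samples 7.10, 7.26 and 7.28. The groups are tight and far apart, with a signal 1.79-fold higher in shFRY (difference 0.84, SE 0.10, limma adjusted p = 0.000769). At 222051_s_at the values were 3.79, 3.77 and 4.49 in control and 4.52, 4.53 and 5.21 in shFRY. Sample 3 was the highest in each group there, the groups did not overlap, and the difference was 0.73 (SE 0.25, limma adjusted p = 0.0667). This probe set passed with the replicate number as a block (limma adjusted p = 0.00592), but equal numbers are not known to mark a shared passage. Neither call was made with the beta-actin covariate, at 0.89 and 0.19 (limma adjusted p = 0.0794 and 0.896). The change of E2F5 exceeded that of E2F3 by 0.82 (exact permutation p = 0.1, two-sided, the lowest possible). This pair too was chosen after the values were seen.

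The atypical repressor genes gave different readings. E2F8 was measured by 219990_at alone, with 4.38, 4.38 and 3.89 in control and 1.72, 2.65 and 2.96 in shFRY. The shFRY samples were all below the control samples, varied more than at any other member probe set, and lay below the median signal of all probe sets. The signal was 3.42-fold lower (difference -1.77, SE 0.30, limma adjusted p = 0.00349), and without shFRY sample 1 the difference was -1.41 (limma adjusted p = 0.00275). With the beta-actin covariate it was -1.23 and did not pass (limma adjusted p = 0.333). E2F7 at 228033_at had 7.37, 7.38 and 7.25 in control and 7.33, 7.34 and 7.40 in shFRY, a difference of 0.02 with a 95% confidence interval from -0.21 to 0.25. At 241725_at the E2F7 samples overlapped as well (difference 0.13, 95% confidence interval -0.27 to 0.52). The change of E2F8 was lower than that of E2F7 by 1.79 (exact permutation p = 0.1, two-sided, the lowest possible). This pair too was chosen after the values were seen.

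TFDP1, the dimer partner of the E2Fs, fell at 2 of its 3 probe sets and by unequal amounts. At 212330_at, which has the highest mean of the 3, the control samples had 11.73, 11.81 and 11.91 and the shFRY samples 11.30, 11.35 and 11.56 (difference -0.42, SE 0.12, limma adjusted p = 0.0319). At 204147_s_at the values were 7.76, 7.87 and 8.45 against 7.04, 7.03 and 7.45 (difference -0.85, SE 0.20, limma adjusted p = 0.0169). At 242939_at the values were 10.00, 9.99 and 9.99 against 9.83, 9.74 and 9.83, a difference of -0.19 that did not pass (limma adjusted p = 0.208). At each of the 3 the highest shFRY sample was under the lowest control sample. The call at 212330_at held among the leave-one-out fits only without shFRY sample 3, with differences from -0.50 to -0.37 (limma adjusted p = 0.0225 to 0.107 in the 6 fits), and the call at 204147_s_at was lost without shFRY sample 1 or 2 (limma adjusted p = 0.0566 and 0.0547). Fitted with the beta-actin covariate they were -0.55 (limma adjusted p = 0.286) and -1.43 (limma adjusted p = 0.0714), short of the threshold.

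Of the pocket protein genes, RBL1 fell at 3 of its 4 probe sets. At 205296_at the control samples had 6.39, 6.40 and 6.48 and the shFRY samples 5.66, 5.51 and 6.02, a 1.61-fold lower signal (difference -0.69, SE 0.14, limma adjusted p = 0.00947). At 1559307_s_at the difference was -0.82 (SE 0.12, limma adjusted p = 0.00147), and at 1555004_a_at it was -0.91 (SE 0.20, limma adjusted p = 0.0126). The 3 differences lay close together, and the groups did not overlap at any of them. At 1555004_a_at the shFRY samples were 4.51, 4.56 and 5.30, so sample 3 lay nearer the control samples (5.66, 5.72 and 5.71) than the others did. The fourth probe set, 1555003_at, had a mean signal at the 4.17th percentile of all probe sets and overlapped between the groups (difference 0.23, limma adjusted p = 0.275). Fitted with the beta-actin covariate the first 3 were -0.70, -0.96 and -0.84, and none of them passed (limma adjusted p = 0.288, 0.0801 and 0.369).

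RBL2, whose product p130 is the main pocket protein of quiescent cells, had smaller differences. At 212331_at the control samples had 7.62, 7.59 and 7.63 and the shFRY samples 7.05, 7.20 and 7.21, so that the fall was 1.38-fold (difference -0.46, SE 0.10, limma adjusted p = 0.0121). At 212332_at the values were 7.94, 8.03 and 7.94 in control and 7.55, 7.62 and 7.92 in shFRY (difference -0.27, limma adjusted p = 0.170). Sample 3 of shFRY almost reached the control samples there, and without it the difference was -0.38 and passed (limma adjusted p = 0.0482). Under the beta-actin covariate 212331_at was -0.47 and did not pass (limma adjusted p = 0.315). As the mean of its 2 probe sets, RBL2 fell by 0.37 on the log2 scale and passed (limma adjusted p = 0.0187).

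RB1, the retinoblastoma gene, did not pass at either probe set. At 211540_s_at the control samples had 8.39, 8.61 and 8.60 and the shFRY samples 8.51, 8.52 and 8.62 (difference 0.02, 95% confidence interval -0.23 to 0.27). At 203132_at the values were 7.46, 7.56 and 7.52 against 7.61, 7.72 and 7.65. The shFRY samples were all higher there, by 0.15 on average (95% confidence interval -0.08 to 0.37, limma adjusted p = 0.344). The change of RBL1 was lower than that of RB1 by 0.71, and that of RBL2 by 0.29 (exact permutation p = 0.1 for each, two-sided, the lowest possible). These pairs too were chosen after the values were seen, and RBL2 is represented by 212332_at, which was not called. Both intervals of RB1 leave out a fall of the size seen for RBL1 at 205296_at.

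**Figure D3:**
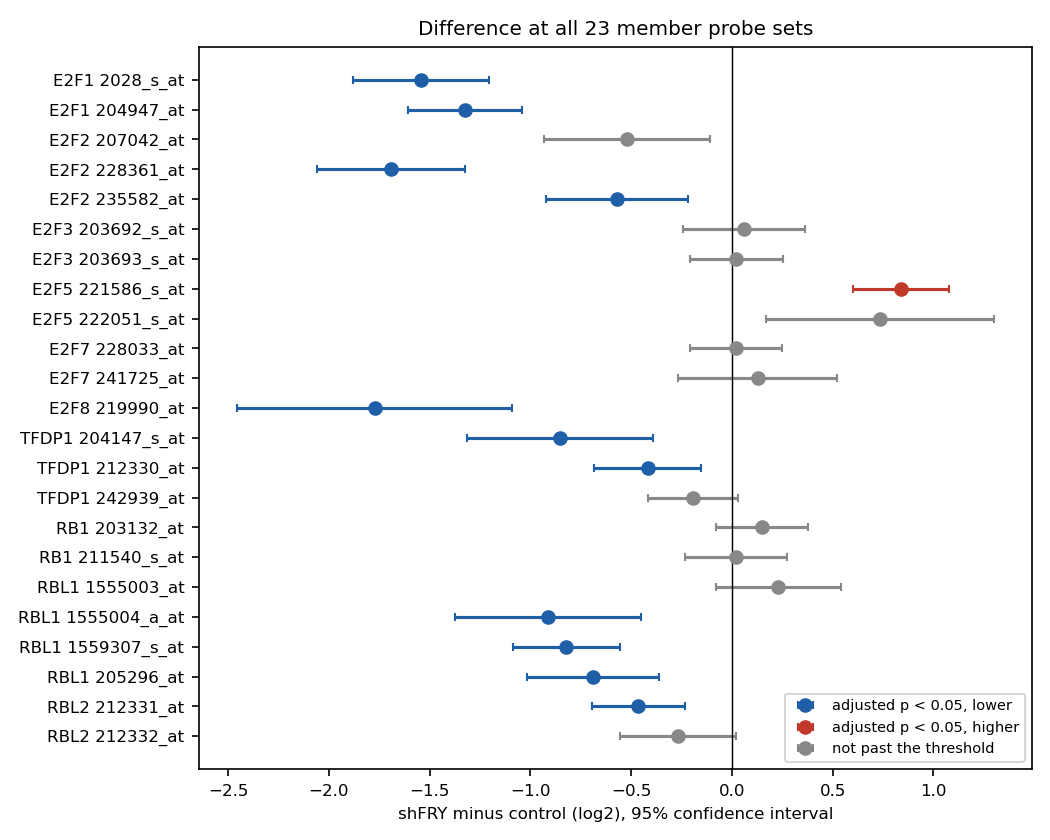
Difference between shFRY and control (log2, limma) at each of the 23 probe sets, with 95% confidence intervals; blue is lower and red higher at an adjusted p of 0.05 over all probe sets, and grey did not pass. The 2 probe sets of E2F1 lie at -1.54 and -1.32, those of E2F3, E2F7 and RB1 lie between 0.02 and 0.15, and E2F5 stands to the right at 0.73 and 0.84.

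The groups did not overlap at 17 of the 23 probe sets, where 39.2% of all probe sets had no overlap. Of the 17, 14 were below and 3 above the control samples, and 5 did not pass the test. The samples of shFRY differed among themselves in a shared way at the falling probe sets. Sample 3 was the highest of the 3 shFRY samples at 11 of the 11 probe sets called lower, where it was the highest at 52.3% of all 6682 probe sets called lower. Sample 1 was the lowest at 8 of the 11, against 43.9%. These probe sets include several for the same gene and are not independent. Without shFRY sample 3, 12 of the 23 were called lower, and without shFRY sample 1 or 2, 8 in each case.

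The genes whose 6 values, centred on the control mean, followed those of a member most closely were sought among genes with a mean above the median, for the 3 members that fell at least 2-fold. For E2F1 they were ICMT, which methylates prenylated proteins, the tubulin gene TUBB and PPP1R3E, with root mean square differences of 0.042, 0.042 and 0.048 (log2, over 6 samples). For E2F2 they were the mannosidase gene MAN1A1, MCM2 of the replicative helicase and IDI1 of isoprenoid synthesis, at 0.075, 0.079 and 0.093. For E2F8 they were RNFT2, PRR15L and the caspase gene CASP2, at 0.11, 0.17 and 0.18. MCM2, a textbook E2F target, fell by 1.60 on the log2 scale, next to 1.69 for E2F2. These genes were picked for values like those of the member, so a fall of like size follows from the choice.

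Genes with E2F sites known from textbooks were mostly lower, as a list of 33 written for this purpose. Of the 30 measured, 23 fell and 0 rose in limma (adjusted over all genes), where 16% of all genes were lower and 13.7% higher, and 7 did not pass. At an adjusted p of 0.05 with the beta-actin covariate, 8 fell. The median difference was -1.06, against 0.03 over all genes. GINS1 and GINS2 of the replicative helicase fell by 1.83 and 1.62 on the log2 scale, the polymerase clamp gene PCNA by 1.77 and the licensing factor gene CDT1 fell by 1.70 (limma adjusted p = 5.89e-05, 4.89e-05, 0.000108 and 0.000696). Members that did not pass include CDC6 (0.04), EZH2 (0.23) and DNMT1 (-0.01), which were named after their values were seen. CDT1 did not pass with the beta-actin covariate (-1.19, limma adjusted p = 0.138). As means of their probe sets, CDT1 fell by 0.90 and GINS2 fell by 0.72 on the log2 scale (limma adjusted p = 0.00592 and 0.00358). GINS2 without _s_at and _x_at probe sets was at -0.46 and did not pass (limma adjusted p = 0.226). Of the 28 genes of this list with a start-site window, 17 (60.7%) held an E2F motif in it, against 3.99% of all genes. With only the 250 bases before the start it was 11 of 28, or 39.3%, against 3.4%. The list was made of genes with known E2F sites, so high shares follow from that choice and do not bear on the falls.

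The kinases and cyclins that phosphorylate pocket proteins moved in unequal ways. Of 9 genes listed as G1 cyclins and kinases, 7 fell, 1 rose and 1 did not pass, with a median of -0.50, where 16% of all genes were lower and 13.7% higher. The list also holds the phosphatase gene CDC25A, which is neither a cyclin nor a kinase gene and was 1 of the 7. The cyclin E genes had the lowest differences at the brightest probe sets: CCNE2 went from 8.99 ± 0.12 to 5.12 ± 0.49 and CCNE1 from 7.78 ± 0.09 to 4.98 ± 0.44 (log2, SD, n = 3 each; limma adjusted p = 1.47e-05 and 4.85e-05). As means of their probe sets, CCNE2 fell by 3.44, CCNE1 fell by 1.43 and CCND1 fell by 1.46, so that CCNE1 no longer exceeded CCND1. Without _s_at and _x_at probe sets, CCNE2 fell by 3.003. CCNE1 and CCNE2 are E2F targets. CCND1, which encodes cyclin D1, fell by 1.35 on the log2 scale, and CDK6, a kinase partner of D-type cyclins, rose by 1.46 (limma adjusted p = 6.53e-05 and 7.58e-05). The count of falls was 4 without control sample 1 or 3 and 3 with the beta-actin covariate. Of 6 measured CDK inhibitor genes, 2 rose and 0 fell (0 also fell at an unadjusted p under 0.05), with a median of 0.18, against 13.7% higher and 16% lower over all genes. CDKN1A, which encodes p21, rose from 10.63 ± 0.09 to 11.41 ± 0.13 (SD, n = 3 each; difference 0.78, limma adjusted p = 0.00116) and did not pass with the beta-actin covariate (0.84, limma adjusted p = 0.0898). The other rise, of a dim probe set of CDKN2A (0.49, limma adjusted p = 0.0303), was lost without control sample 1, 2 or 3 or shFRY sample 2 or 3, with the beta-actin covariate (0.47, limma adjusted p = 0.430) and as the mean of its probe sets (0.16, limma adjusted p = 0.264).

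The remaining E2F and DP genes did not pass as represented by their brightest probe sets. E2F4 was at -0.21 (limma adjusted p = 0.284) and the dim TFDP3 at -0.05 (limma adjusted p = 0.856). TFDP2, which encodes the other main dimer partner, was named after its values were seen. It was at -0.01 and -0.06 at 203589_s_at and 203588_s_at, whereas its dimmer probe sets 226157_at and 244043_at fell by 0.74 and 0.75 on the log2 scale (limma adjusted p = 0.0108 and 0.00899, over all probe sets), so that its probe sets disagree.

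Of 8 genes of the MuvB core, which joins pocket proteins in the DREAM complex, and of its partners, 2 rose and 2 fell, with a median of 0.08, near the 13.7% higher and 16% lower over all genes. LIN37 rose by 0.72 and DYRK1A, a kinase that promotes DREAM assembly, by 0.50 on the log2 scale (limma adjusted p = 0.0111 and 0.00495). The histone-binding subunit gene RBBP4 fell by 0.50 and the mitotic transcription factor gene FOXM1 by 0.40 (limma adjusted p = 0.0289 and 0.0154). Both falls were lost without control sample 2 or 3 (limma adjusted p = 0.0709 and 0.0981 for RBBP4, 0.0516 and 0.0525 for FOXM1), and that of RBBP4 also without control sample 1 or shFRY sample 1. Without _s_at and _x_at probe sets LIN37 was at -0.10 and DYRK1A at 0.14, and neither passed, whereas RBBP4 fell by 1.28 (limma adjusted p = 0.00153). The beta-actin covariate ended all 4 calls, with LIN37 at 0.60, DYRK1A at 0.60, RBBP4 at -0.64 and FOXM1 at -0.40 (limma adjusted p = 0.363, 0.131, 0.261 and 0.317).

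Of 8 measured genes for corepressors and chromatin partners of RB, 5 fell and 1 rose, with a median of -0.48, where 16% of all genes were lower and 13.7% higher. The histone methyltransferase gene SUV39H1 fell by 1.15, the deacetylase gene HDAC1 by 0.71 and the scaffold gene SIN3A by 0.70 on the log2 scale (limma adjusted p = 0.000147, 0.00122 and 0.00356). The demethylase gene KDM5A rose by 0.52 (limma adjusted p = 0.00289). Without probe sets ending in _s_at or _x_at KDM5A was at -0.00455. As the mean of all its probe sets, the one that rose included, it was at 0.24 and did not pass (limma adjusted p = 0.0959). With the beta-actin covariate HDAC1 was at -0.62, SIN3A at -0.67 and KDM5A at 0.54, and none passed (limma adjusted p = 0.143, 0.198 and 0.155). Of 6 ubiquitin ligase genes of G1 and S phase, 4 fell and 0 rose (0 rose at an unadjusted p under 0.05 as well), with a median of -0.43, against the same shares of all genes. SKP2, which targets p27 and is an E2F target, fell by 1.84, CCNF, which encodes cyclin F, by 1.63, the activator gene FZR1 by 0.46 and FBXO5, an inhibitor of the same complex, by 0.39 on the log2 scale (limma adjusted p = 0.000192, 0.000161, 0.00821 and 0.0401). FBXO5 lost its call in 5 of the 6 leave-one-out fits, the exception being without shFRY sample 3, and also with median centring (-0.37, limma adjusted p = 0.0561) and the replicate block (limma adjusted p = 0.0666). The beta-actin covariate ended the calls of FZR1 and FBXO5, at -0.44 and -0.36 (limma adjusted p = 0.273 and 0.486), and as the mean of its probe sets FZR1 was at -0.13 (limma adjusted p = 0.398).

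**Figure D4:**
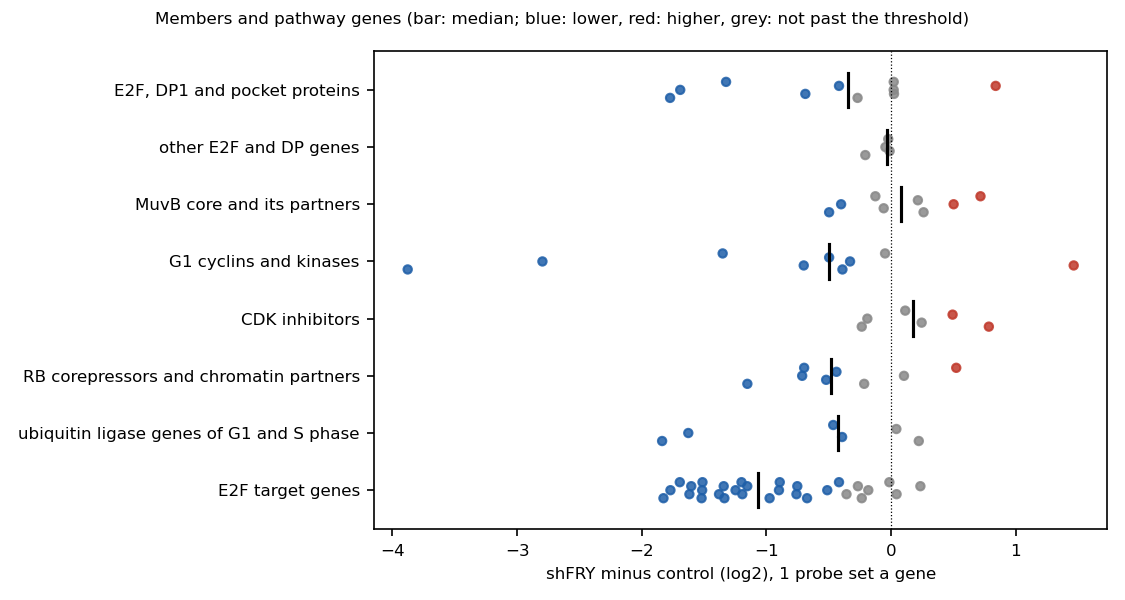
Difference between shFRY and control (log2, limma, 1 probe set a gene) for the 10 member genes and for 7 lists of pathway genes; each point is a gene, blue lower, red higher and grey not past an adjusted p of 0.05 over all genes, and the bar is the list's median. The E2F target list has its median at -1.06, and the CDK inhibitors at 0.18.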

How the data were processed

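Total RNA from 3 control and 3 shFRY samples was measured on 1-colour arrays, 1 array a sample. The deposited values are log2 probe set signals that the authors made with RMA, per the submitters' processing notes; the sources used here name no version or settings. RMA compresses differences of dim probe sets. They were used as deposited; no 2 samples were identical. Of 54675 probe sets, 62 were controls, 41091 had 1 gene symbol, 1801 several and 11721 none listed; symbols were updated by Entrez ID to RefSeq (41037 matched). limma 3.58.1 in R 4.3.3 (lmFit, eBayes, Benjamini-Hochberg) compared shFRY with control over 54613 probe sets, and over 19775 genes with the probe set of highest mean, with 4 residual degrees of freedom. Precision is limited by the 6 arrays. The scripts were tested on simulated data. The alternatives were sample scaling, variance model, array weights, a filter on dim probe sets, other ways of representing a gene, the replicate number as a block, the beta-actin covariate and leaving out each sample.

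The members and lists were chosen with earlier results of these data known, and p-values are adjusted over whole tables only. Named genes are all members, up to 4 genes a list past the threshold with the largest differences, or 2 with the smallest p where none passed, and the 3 genes nearest in profile to each member that changed at least 2-fold.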

Additional observations from a re-analysis of the deposited data

How the results depend on the processing

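E2F1 (both probe sets) and E2F2 (228361_at) kept their direction and call under every alternative run, and the samples' number limits what smaller differences can show. Clone and shRNA cannot be told apart.

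The beta-actin covariate left 3 member probe sets called lower and 0 higher, and by gene 2 lower and 0 higher. In that fit the lists had 8 E2F targets, 3 G1 cyclins and kinases, 2 ubiquitin ligase genes, 1 corepressor and 0 MuvB genes lower, and 0 MuvB genes, 0 CDK inhibitors and 0 corepressors higher. The cause was not tested. Member probe sets called higher numbered 2 with another quantile normalization, with eBayes trend and robust options, over probe sets with a mean above the median and with the replicate block, against 1. Whether equal replicate numbers mark a shared passage is not known, and they were not taken as pairs: deviations of same-numbered samples correlated at 0.0030, -0.0043 and 0.039. The block gave 12 member probe sets lower, against 11, and 2 higher.

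Without _s_at and _x_at probe sets 0 member genes were higher, since E2F5 has no other probe set; 1 other E2F or DP gene was lower, MuvB genes had 1 lower and 0 higher, CDK inhibitors 1 higher, corepressors 3 lower and 0 higher, and ubiquitin ligase genes 2 lower. LIN37 (-0.10) and KDM5A (-0.00455) changed sign there. Among the named genes, CDKN1A, FOXM1, SUV39H1, SKP2 and FBXO5 also have no other probe set and were not in that fit. The smaller counts of their lists are therefore partly genes not refitted, not calls that failed. Averaging all probe sets of each gene, 6 member genes were lower, against 5, the added one being RBL2. In that fit 1 other E2F or DP gene was lower, 1 CDK inhibitor higher and 0 corepressors higher. Over genes above the median signal 1 CDK inhibitor was higher.

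Leaving out each sample gave 8 to 12 member probe sets lower and 1 to 2 higher, 4 to 6 member genes lower, 0 to 2 MuvB genes lower, 4 to 6 G1 cyclins and kinases lower and 1 to 2 CDK inhibitors higher. Of 797 refitted differences of single probe sets and genes, 696 kept direction and side of the threshold, 63 lost the call, 11 gained it and 27 changed sign, all but LIN37 and KDM5A among results that did not pass either way. These were E2F3 203693_s_at with another quantile normalization (-0.025), the beta-actin covariate (-0.027) and without shFRY sample 2 (-0.011), and E2F3 203692_s_at without control sample 3 (-0.043). E2F7 228033_at changed sign with that normalization (-0.018) and without control sample 3 (-0.022), as E2F7 241725_at did there (-0.054). RB1 211540_s_at did with that normalization (-0.011), the covariate (-0.16), without control sample 1 (-0.052) or shFRY sample 3 (-0.014) and, by gene, with array weights (-0.0017). TFDP3 did with array weights (0.021), the covariate (0.43) and without control sample 1 (0.11) or shFRY sample 3 (0.0082). Leaving out each sample gave up to 0.064 for E2F3 203693_s_at, 0.17 for 203692_s_at, 0.044 for E2F7 228033_at, 0.26 for 241725_at and 0.059 for RB1 211540_s_at, and down to -0.16 for TFDP3. The count of 5 member genes with an E2F motif stayed at 5 with the 250 bases before the start and with the first 7 letters, a setting chosen after seeing the data.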
